A study of Mus musculus with 29 samples.

Results

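The 35 genes described here encode the enzymes of glycolysis and of the pentose phosphate pathway, the carriers that move glucose and lactate across the plasma membrane, the kinases that restrain pyruvate dehydrogenase, and the transcription factor Hif1a. They were taken by gene symbol from a deposited expression table of 30025 genes, in which all 35 had a row. Pkm2 is the older symbol of Pkm and stands in the table for the whole gene. A filter on low values kept 15409 genes for testing, 34 of the 35 among them. The gene it removed was Slc16a3, the lactate exporter MCT4, whose FPKM (fragments scaled to transcript length and to library depth) averaged 0.347 over the 29 libraries and lay at 7 to 161 fragments in each.

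Glycolysis breaks glucose down to pyruvate in the cytosol, and lactate dehydrogenase then converts pyruvate to lactate when it is not passed on to mitochondria. The pentose phosphate pathway branches off at glucose 6-phosphate and provides NADPH and ribose. Quiescent blood stem cells are known for leaning on glycolysis, a state tied in earlier work to hypoxia-inducible factors and to pyruvate dehydrogenase kinases.

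RNA was profiled in blood stem and progenitor cells of C57BL/6J mice that carry a heterozygous germline deletion of chromosome band 5A3, syntenic to part of human 7q22 (5A3+/del), and in wild-type (WT) littermates. From the bone marrow of each mouse, cells that were c-kit+, lineage-, Sca-1+, CD41- and CD48- were sorted by CD150 level into CD150hi hematopoietic stem cells (HSC), CD150lo HSC and CD150neg cells, which the study calls multipotent progenitors (MPP). There were 5 mice of each genotype and 5 libraries in each of the 6 groups, save 4 for 5A3+/del CD150neg MPP. WT mice were 12.42 to 13.28 weeks old and 5A3+/del mice 12.42 to 13.85 weeks. The deletion is in the germline and so is carried by every tissue, and no member lies on chromosome 5.

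The spacing of low FPKM values, which are whole fragments rescaled, gave 21229490 to 38797569 fragments a library, and ribosomal RNA of mitochondria took 20.7 to 31.4% of them. Slamf1, which encodes the CD150 of the sort, followed its gate and was higher in CD150hi HSC than in CD150neg MPP by 3.83 on the log2 scale. Flt3 and Cd34, which rise as HSC become MPP and were not used in this sort, differed by -3.59 and -2.06. The adjusted p of these genes was at most 6.42e-13 (limma). They belong to a list of 8 HSC and MPP markers, of which 4 were higher and 4 lower, with a median log2 difference of -0.05. Of the 8, 5 had an adjusted p under 0.05, 2 higher and 3 lower, against 13.2% of all genes. WT mouse 3 stood apart, with Xist at an FPKM of 234 to 319 in its 3 libraries against at most 0.47 elsewhere and 4 Y-linked genes summing to at most 0.124 against at least 51.4 elsewhere. It thus differed in sex-linked RNA from all other mice, and the results were also computed without it: 7 members in place of 9 then passed between CD150hi HSC and CD150neg MPP, losing Gpi1 and Taldo1, and the adjusted counts of members in the other comparisons were the same. Of markers of other blood cells, the 12 of granulocytes and monocytes summed to 213 to 1704 FPKM and the 8 of T and NK cells to 6.56 to 60.1. These are bulk samples, so fewer expressing cells and less RNA per cell cannot be told apart. The libraries of a mouse came from 1 animal, and the test treated them as separate.

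Over all 29 libraries the members spanned a wide range of levels, all given per kilobase. Pkm2, the pyruvate kinase that ends glycolysis, was highest at a mean normalized FPKM of 92.0. Aldoa followed at 68.2, then Gapdh at 64.3, Pgam1 at 63.8 and Ldha at 62.0. These 5 genes act in the middle and end of the pathway, and the range of each over the libraries overlapped that of the next in the order. The order differed between groups. Ldha was first in WT CD150hi HSC, at 76.8, followed by Aldoa at 73.9 and Pkm2 at 70.1, whereas in WT CD150neg MPP Pkm2 was first at 106 and Ldha the fifth at 55.5. The hexokinases and phosphofructokinases were expressed at lower levels, with Pfkm at 10.4, Hk3 at 9.79, Hk1 at 8.64, Pfkl at 8.16, Hk2 at 4.96 and Pfkp at 4.06 over all libraries. At the bottom stood Eno2, the enolase best known from neurons, at 1.78 and Pdk4 at 1.15.

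**Figure D1:**
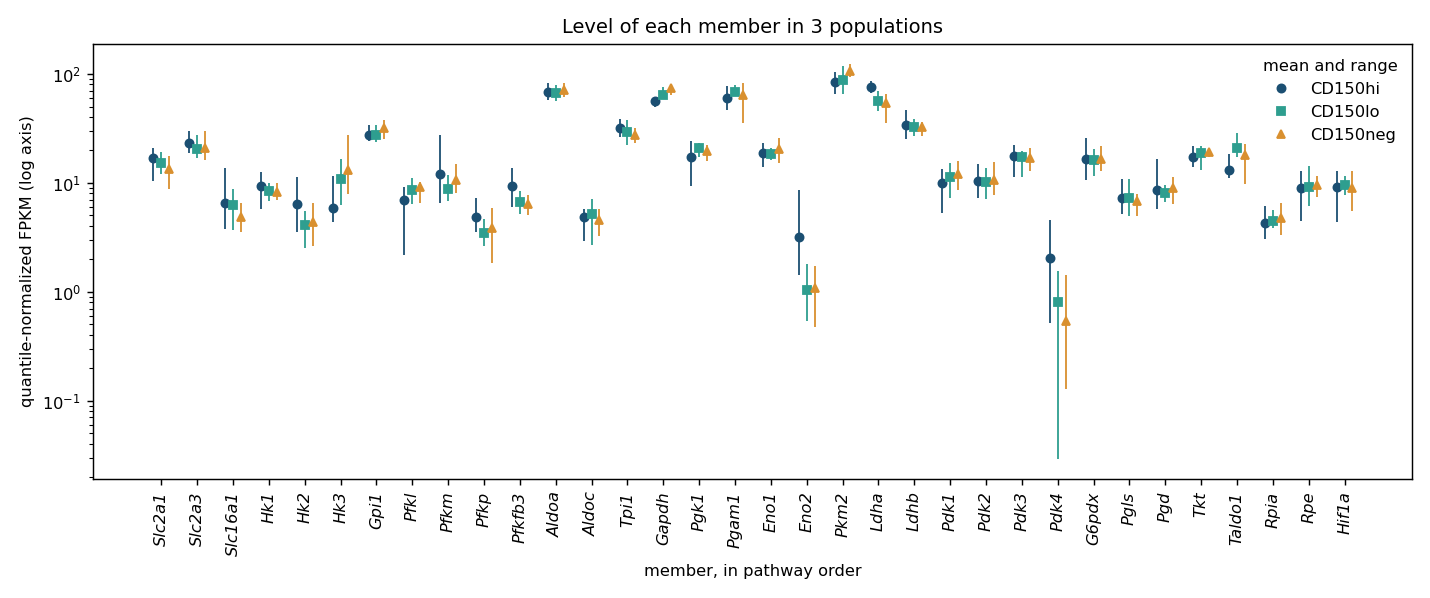
Mean normalized FPKM on a log axis (points) with the lowest and highest library (lines) of the 34 tested members, in pathway order, in CD150hi HSC (10 libraries), CD150lo HSC (10) and CD150neg MPP (9). Most members lie within a narrow band across the 3 populations, Eno2 and Pdk4 lie lowest, and Pkm2 lies highest overall.

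The enzyme families differed in how evenly their members were expressed. Over all 29 libraries Eno1 held 91.9% of the enolase sum, whereas Slc2a3 held 58.6% of the sum of both glucose carriers and Pfkm, Pfkl and Pfkp held 45.0%, 36.9% and 18.1% of the phosphofructokinase sum. Of the summed FPKM of Aldoa and Aldoc, Aldoa held 93.3%, 92.8% and 93.9% in the order CD150hi, CD150lo, CD150neg. Lactate dehydrogenase A, the muscle-type subunit, held 69.5% ± 3.87 (SD, n = 10) of the Ldha and Ldhb sum in CD150hi HSC against 63.4% ± 4.18 (n = 10) and 62.2% ± 4.35 (n = 9) in CD150lo HSC and CD150neg MPP. The hexokinases, which trap glucose in the cell, were mixed differently by population. Hk3 held 27.1% ± 5.93, 45.8% ± 8.89 and 49.3% ± 10.9 of the hexokinase sum in that order, whereas Hk2 held 29.4% ± 7.73, 17.6% ± 4.78 and 17.9% ± 6.19 in the same order. Of the pyruvate dehydrogenase kinases, Pdk3 held the largest share in each population, from 42.0 to 44.0% on average.

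The comparison of populations asked how these genes differ along the step from HSC to MPP, with the genotypes weighted equally. Between CD150hi HSC and CD150neg MPP, 9 of the 34 members passed the test (limma, Benjamini-Hochberg adjusted p under 0.05 over all genes), against 13.2% of all genes tested. Ldha, Pfkfb3, Eno2 and Pdk4 were higher in CD150hi HSC, against 6.99% of all genes, and Hk3, Gapdh, Pkm2, Taldo1 and Gpi1 were lower, against 6.20%. The median log2 difference of the members was -0.01 and that of all genes -0.005. Between CD150hi and CD150lo HSC, 6 members passed, against 7.64% of all genes. Ldha, Eno2, Pdk4 and Pfkfb3 were again higher, against 4.23%, and Hk3 and Taldo1 lower, against 3.41%. Both comparisons use the same CD150hi libraries. Between CD150lo HSC and CD150neg MPP no member passed, while 0.292% of all genes did. In that comparison 3 of 34 members had an unadjusted p under 0.05, near the 7.93% of all genes, and the smallest adjusted p was 0.208 (Pkm2).

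**Figure D2:**
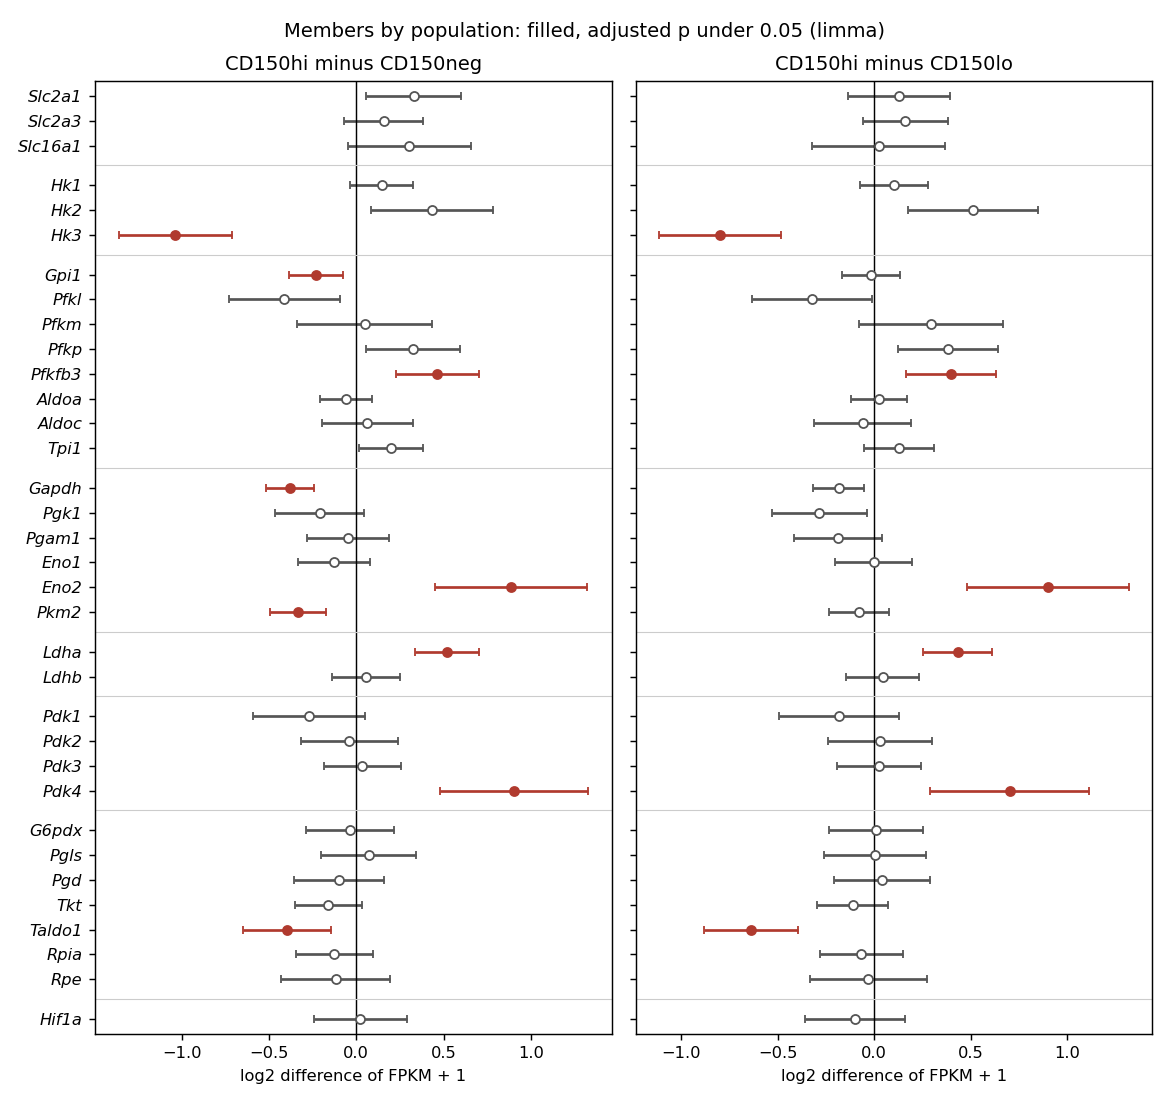
Log2 difference of normalized FPKM + 1 with its 95% interval for each tested member, for CD150hi HSC minus CD150neg MPP (left) and CD150hi minus CD150lo HSC (right), in pathway order with lines between roles. Filled points passed an adjusted p of 0.05: 9 on the left, of which 4 lie above 0, and 6 on the right, of which the same 4 lie above 0.

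The 6 members that passed in both comparisons are shown with the 150 bases before their outermost RefSeq transcription start (build GRCm38.p6, not the mm9 build of the expression files), to let their start regions be compared. Capitals mark ACGTG on either strand, the letters at the heart of the hypoxia response element, which are also part of the E-box CACGTG. The strand is that of the gene.
Ldha, higher in CD150hi HSC, chr7:46845654-46845803, plus strand: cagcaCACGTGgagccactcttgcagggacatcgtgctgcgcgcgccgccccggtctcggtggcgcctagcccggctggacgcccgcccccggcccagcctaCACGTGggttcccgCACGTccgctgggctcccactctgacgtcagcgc
Pfkfb3, higher in CD150hi HSC, chr2:11553930-11554079, minus strand: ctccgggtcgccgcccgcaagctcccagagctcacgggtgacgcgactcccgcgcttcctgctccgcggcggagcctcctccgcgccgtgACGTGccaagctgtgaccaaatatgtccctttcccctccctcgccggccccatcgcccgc
Eno2, higher in CD150hi HSC, chr6:124769674-124769823, minus strand: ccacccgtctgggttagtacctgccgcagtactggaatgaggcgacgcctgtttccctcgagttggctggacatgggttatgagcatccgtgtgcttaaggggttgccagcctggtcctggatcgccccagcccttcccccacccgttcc
Pdk4, higher in CD150hi HSC, chr6:5496279-5496428, minus strand: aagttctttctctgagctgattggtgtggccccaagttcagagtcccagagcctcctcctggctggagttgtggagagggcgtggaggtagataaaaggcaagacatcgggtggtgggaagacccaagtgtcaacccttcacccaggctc
Hk3, lower in CD150hi HSC, chr13:55021386-55021535, minus strand: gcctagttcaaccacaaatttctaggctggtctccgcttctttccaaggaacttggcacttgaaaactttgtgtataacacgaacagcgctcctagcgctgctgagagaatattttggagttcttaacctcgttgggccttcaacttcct
Taldo1, lower in CD150hi HSC, chr7:141392010-141392159, plus strand: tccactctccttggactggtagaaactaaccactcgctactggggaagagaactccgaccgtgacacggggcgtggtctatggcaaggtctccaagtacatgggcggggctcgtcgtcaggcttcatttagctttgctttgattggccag

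The Ldha window held 3 capitalised stretches of ACGTG and the Pfkfb3 window 1, and the other 4 windows held none. GCGTG was not capitalised. It stands in the windows of Pdk4, higher in CD150hi HSC, and of Taldo1, lower there. In the longer RefSeq windows of 250 bases before to 50 after a start, ACGTG was found on either strand in 22 of the 49 windows of members (44.9%) and in 19.6% of all 32851 windows. The motif GCGTG, another form of the core of the same element, was found in 55.1% of member windows and 32.4% of all. Slc2a3 had no entry there. A match of 5 letters is a description of the sequence and was not tested as a binding site.

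Ldha makes lactate from pyruvate and lies on chromosome 7 (mm9 54096845 to 54110997, plus strand). Its normalized FPKM ran from 67.2 through a median of 76.4 to 85.4 in CD150hi HSC, from 45.8 through 56.1 to 68.7 in CD150lo HSC, and from 35.2 through 53.8 to 64.6 in CD150neg MPP. All 10 CD150hi libraries thus lay above all 9 CD150neg libraries. The difference was 0.52 ± 0.09 (SE) on the log2 scale against CD150neg MPP, or 1.43-fold (adjusted p = 0.000115), and 0.43 ± 0.09 against CD150lo HSC (adjusted p = 0.00132). Within each genotype alone the difference from CD150neg MPP was 0.46 in WT (adjusted p = 0.0146) and 0.58 in 5A3+/del (adjusted p = 0.00501). Against CD150lo HSC it was 0.49 in WT (adjusted p = 0.0218) and 0.38 in 5A3+/del (adjusted p = 0.105). The 5 pseudogene copies of Ldha in the table summed to 4.06% of its FPKM. Ldhb, the heart-type subunit, ran from 25.2 through 34.0 to 46.8 in CD150hi HSC, from 26.8 through 31.4 to 38.5 in CD150lo HSC and from 26.5 through 32.4 to 35.8 in CD150neg MPP, and its difference from CD150neg MPP was 0.05 (95% interval -0.14 to 0.25).

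Pfkfb3 makes fructose 2,6-bisphosphate, the activator of phosphofructokinase. Levels in normalized FPKM ran from 6.04 through a median of 8.71 to 13.5 in CD150hi HSC, from 5.21 through 6.77 to 8.30 in CD150lo HSC, and from 5.00 through 6.44 to 7.69 in CD150neg MPP. Its groups overlapped, and the CD150hi libraries held the highest values. On the log2 scale the difference was 0.46 ± 0.12 (SE) against CD150neg MPP (adjusted p = 0.00655) and 0.40 ± 0.11 against CD150lo HSC (adjusted p = 0.0268). The latter call was lost without any 1 of 6 mice, WT mouse 1 or 2 or 5A3+/del mouse 1, 3, 4 or 5, with the largest adjusted p at 0.0798. Within 5A3+/del alone the difference from CD150neg MPP was 0.56 (adjusted p = 0.0442), and within WT alone 0.36 (adjusted p = 0.173).

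Eno2, an isoform of the enolase that makes phosphoenolpyruvate, was low in every population. Its normalized FPKM ran from 1.43 through 2.27 to 8.48 in CD150hi HSC, from 0.533 through 1.10 to 1.79 in CD150lo HSC and from 0.477 through 0.966 to 1.73 in CD150neg MPP. A few CD150hi libraries stood well above the rest, namely WT mouse 2 at 8.48 and 5A3+/del mice 1 and 2 at 5.51 and 3.81. The log2 difference was 0.89 ± 0.21 (SE) against CD150neg MPP (adjusted p = 0.00405) and 0.90 ± 0.20 against CD150lo HSC (adjusted p = 0.00461). With a pseudocount of 0.1 in place of 1 these were 1.34 and 1.38. Within WT alone the adjusted p were 0.0518 and 0.0433, and within 5A3+/del alone 0.0907 and 0.193.

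Pdk4 phosphorylates pyruvate dehydrogenase and so limits the entry of pyruvate into mitochondria. Its normalized FPKM ran from 0.518 through 1.88 to 4.56 in CD150hi HSC, from 0.0291 through 0.871 to 1.54 in CD150lo HSC and from 0.129 through 0.535 to 1.41 in CD150neg MPP, on 5 to 407 fragments a library. The log2 difference was 0.90 ± 0.21 (SE) against CD150neg MPP (adjusted p = 0.00266) and 0.70 ± 0.20 against CD150lo HSC (adjusted p = 0.0270). The call against CD150lo HSC was lost without any 1 of WT mice 1 and 4 and 5A3+/del mice 1, 2, 3 and 5, with the largest adjusted p at 0.0907. With a pseudocount of 0.1 the differences were 1.78 (adjusted p = 0.00906) and 1.35 (adjusted p = 0.0669). Within WT alone neither passed, at 0.69 (adjusted p = 0.138) and 0.56 (adjusted p = 0.376). Within 5A3+/del alone they were 1.12 (adjusted p = 0.0204) and 0.84 (adjusted p = 0.122).

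Pdk1, Pdk2 and Pdk3, the more abundant kinases of the family, did not pass. Pdk1 ran from 5.27 through 9.72 to 13.3 normalized FPKM in CD150hi HSC, from 7.30 through 11.4 to 15.0 in CD150lo HSC and from 8.58 through 12.5 to 16.0 in CD150neg MPP. Pdk2 ran from 7.24 through 9.44 to 14.9, from 7.07 through 9.96 to 13.7 and from 7.71 through 11.1 to 15.3 in the same order. Pdk3 ran from 11.3 through 18.2 to 21.99, from 11.3 through 17.96 to 19.7 and from 12.8 through 16.5 to 21.0. The ranges of all 3 overlapped throughout, with log2 differences between CD150hi HSC and CD150neg MPP of -0.27, -0.04 and 0.04.

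Hk3, the hexokinase of myeloid cells, was lower in CD150hi HSC than in both other populations. Its normalized FPKM was 4.52, 4.38, 5.31, 6.02 and 4.85 in CD150hi HSC of the 5 WT mice, 8.25, 8.08, 6.26, 10.5 and 8.99 in their CD150lo HSC, and 12.0, 9.07, 7.81, 14.2 and 11.6 in their CD150neg MPP. In every WT mouse the level therefore was lowest in CD150hi HSC and highest in CD150neg MPP. In 5A3+/del mice it was 4.84, 11.5, 5.38, 5.39 and 5.72 in CD150hi HSC, 13.8, 16.6, 10.8, 14.7 and 10.7 in CD150lo HSC, and 10.9, 27.4, 13.2 and 11.3 in the 4 CD150neg libraries. 5A3+/del mouse 2 was the highest mouse in each population. Hk3 differed on the log2 scale by -1.04 ± 0.16 (SE) against CD150neg MPP (adjusted p = 2.37e-05) and -0.80 ± 0.15 against CD150lo HSC (adjusted p = 0.000813). Within WT alone they were -0.97 (adjusted p = 0.00369) and -0.64 (adjusted p = 0.129), and within 5A3+/del alone -1.10 (adjusted p = 0.00244) and -0.96 (adjusted p = 0.00881). Without 5A3+/del mouse 2 the differences over both genotypes were -0.99 and -0.86, with adjusted p of 6.77e-07 and 6.52e-06. Of the 12 granulocyte and monocyte markers, 7 were higher and 5 lower in CD150hi HSC than in CD150neg MPP, with a median log2 difference of 0.10. The 1 of these markers that passed, against 13.2% of all genes, was Mpo, at -1.50. Their summed FPKM ran from 230 through a median of 317 to 1139 in CD150hi HSC and from 213 through 293 to 539 in CD150neg MPP, and that of 5A3+/del mouse 2 was 346, 367 and 309 in its CD150hi, CD150lo and CD150neg libraries. In CD150hi HSC this mouse had the highest marker sum of the 5A3+/del mice, with the others at 244, 269.5, 230 and 232, as it had the highest Hk3. In the other populations its sum lay within the 238 to 627 and 213 to 539 of the other 5A3+/del mice. The part of these markers in the level of Hk3 was not tested.

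Neither Hk1 nor Hk2 passed. Hk2, the hexokinase of insulin-sensitive tissues, ran from 3.50 through 5.46 to 11.2 in CD150hi HSC, from 2.52 through 4.31 to 5.54 in CD150lo HSC and from 2.61 through 4.36 to 6.54 in CD150neg MPP. Its log2 differences of 0.43 and 0.51 from CD150neg MPP and CD150lo HSC had adjusted p of 0.0983 and 0.0558, short of the threshold. Hk1, the housekeeping hexokinase, ran from 5.76 through 9.09 to 12.4, from 6.80 through 8.35 to 9.91 and from 6.97 through 8.20 to 9.89 in the same order. It differed by 0.14 and 0.10 (adjusted p = 0.330 and 0.569).

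**Figure D3:**
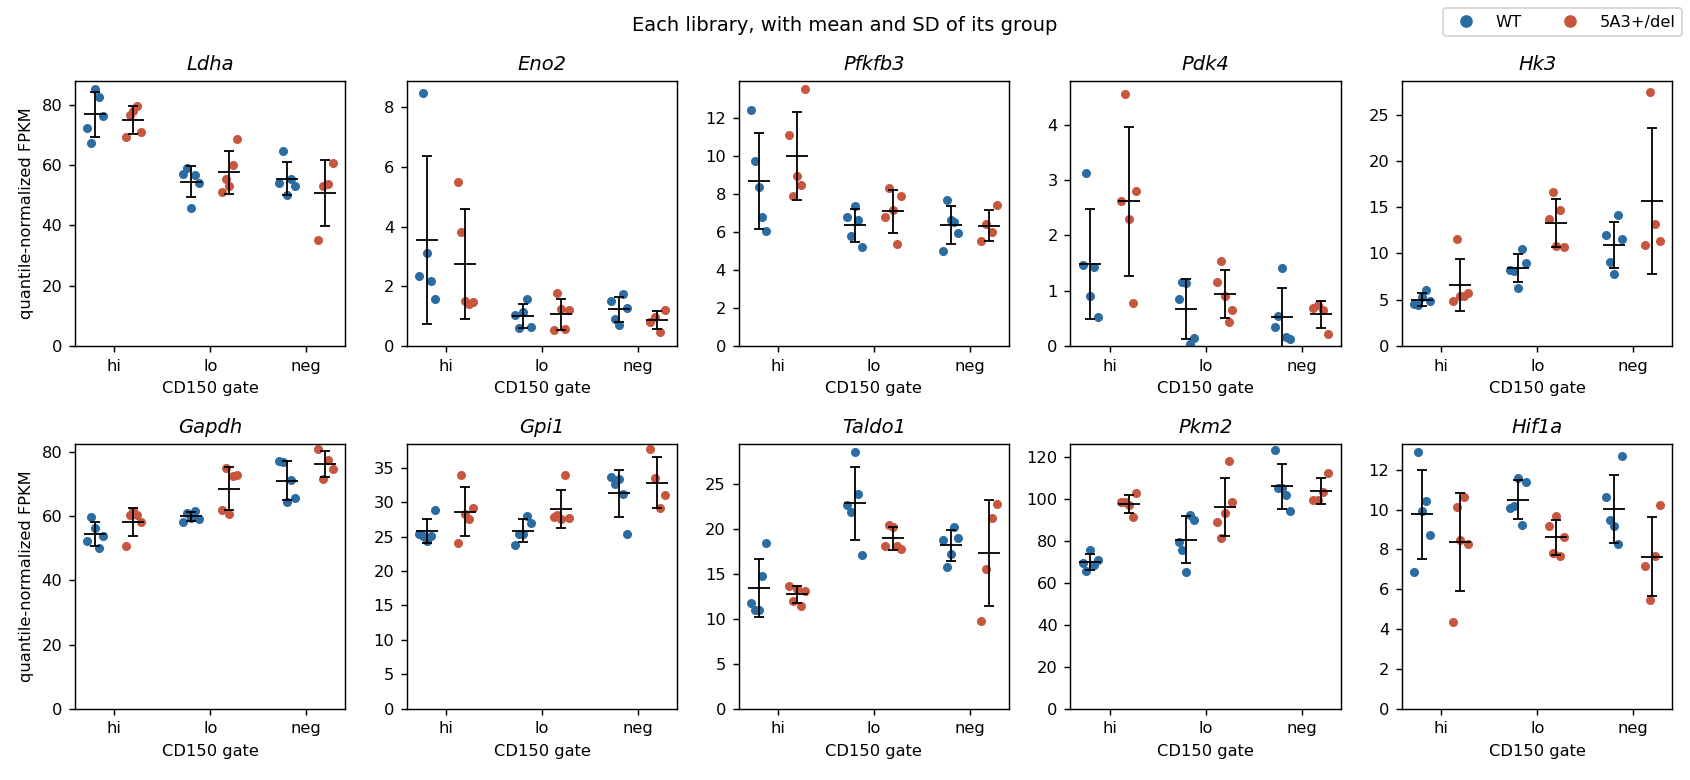
Normalized FPKM of each library for 10 members, by CD150 gate and genotype (WT blue, 5A3+/del red), with the group mean and SD in black (bars cut where they reach 0). Ldha, Eno2, Pfkfb3 and Pdk4 sit highest in the CD150hi gate, and Hk3, Gapdh and Taldo1 sit lowest there. Gpi1 lies at a like level in the CD150hi and CD150lo gates and higher in CD150neg. Pkm2 of WT CD150hi HSC, at 65.6 to 75.8, lies below the 91.2 to 103 of 5A3+/del CD150hi HSC.

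Gapdh, which makes 1,3-bisphosphoglycerate and NADH, was lower in CD150hi HSC than in CD150neg MPP. Its normalized FPKM ran from 49.97 through 57.2 to 61.5 in CD150hi HSC, from 58.3 through 61.3 to 75.0 in CD150lo HSC and from 64.2 through 74.5 to 81.0 in CD150neg MPP. The CD150hi and CD150neg libraries did not overlap. Gapdh differed on the log2 scale by -0.38 ± 0.07 (SE), or to 0.769-fold (adjusted p = 0.000121), and it was -0.38 in each genotype alone. CD150lo HSC lay between, with differences of -0.18 from CD150hi to CD150lo HSC (adjusted p = 0.0799) and -0.20 from CD150lo HSC to CD150neg MPP (adjusted p = 0.290). The table lists 47 pseudogene copies of Gapdh (at least 90% identical over at least 200 bases), whose FPKM summed to 177 ± 20.4 (SD, n = 10) in CD150hi HSC and 250 ± 34.1 (n = 9) in CD150neg MPP, lower in the same population as Gapdh itself. The split of reads between the gene and its copies was not tested, and the level of Gapdh is uncertain for that reason.

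Pkm2, the last enzyme of glycolysis, was also lower in CD150hi HSC than in CD150neg MPP. In WT its normalized FPKM was 69.5, 65.6, 75.8, 68.4 and 71.1 in CD150hi HSC, 79.7, 75.8, 65.3, 92.4 and 89.996 in CD150lo HSC, and 123, 105, 105, 102 and 94.2 in CD150neg MPP. In 5A3+/del it was 98.7, 98.3, 97.2, 91.2 and 103 in CD150hi HSC, 88.8, 81.4, 93.2, 118 and 98.7 in CD150lo HSC, and 99.5, 99.5, 103 and 113 in CD150neg MPP. The groups of WT CD150hi HSC and WT CD150neg MPP did not overlap, while the 5A3+/del groups did. Over both genotypes the log2 difference between CD150hi HSC and CD150neg MPP was -0.34 ± 0.08 (SE, adjusted p = 0.00301). It was -0.59 ± 0.11 in WT alone (adjusted p = 0.000414) and -0.09 ± 0.11 in 5A3+/del alone (adjusted p = 0.786). The difference between these 2 values did not pass the test (adjusted p = 0.378). The row covers both splice forms of the gene, PKM1 and PKM2, which a gene-level value does not separate.

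Gpi1, the isomerase that makes fructose 6-phosphate, and Taldo1, the transaldolase that returns pentose carbons to glycolysis, differed less firmly. Gpi1 ran from 24.0 through 26.5 to 33.9 in CD150hi HSC and from 25.4 through 32.7 to 37.8 in CD150neg MPP, a log2 difference of -0.23 ± 0.08 (SE, adjusted p = 0.0439). Leaving out any 1 of WT mice 1 to 4 or 5A3+/del mice 1, 3, 4 and 5 lost that call, with the largest adjusted p at 0.177 without 5A3+/del mouse 1. Between CD150hi and CD150lo HSC Gpi1 differed by -0.02 (adjusted p = 0.943), and between CD150lo HSC and CD150neg MPP by -0.21 (adjusted p = 0.346). Gpi1 shares 741 exon bases with Gm17327 on the opposite strand, and strand was not given as part of the counting.

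By its median Taldo1 was lowest in CD150hi HSC and highest in CD150lo HSC. Its log2 difference of 0.24 between CD150lo HSC and CD150neg MPP did not pass (adjusted p = 0.644, limma). Taldo1 ran, in normalized FPKM, from 11.0 through 12.6 to 18.4 in CD150hi HSC, from 17.1 through 20.4 to 28.6 in CD150lo HSC and from 9.76 through 18.8 to 22.8 in CD150neg MPP. The log2 difference from CD150lo HSC was -0.64 ± 0.12 (SE, adjusted p = 0.000563), and it held without each mouse in turn. Within WT alone it was -0.74 (adjusted p = 0.0100), and within 5A3+/del alone -0.54 (adjusted p = 0.0857). The difference from CD150neg MPP was -0.39 ± 0.12 (adjusted p = 0.0313), and that call was lost without any 1 of WT mice 1 to 4 or 5A3+/del mice 2, 3 and 4, with adjusted p up to 0.146. Within WT alone it was -0.44 (adjusted p = 0.110), and within 5A3+/del alone -0.35 (adjusted p = 0.321).

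Members at other steps did not pass in any population comparison. Slc2a1 (GLUT1), the main glucose carrier of blood cells, ran from 10.4 through 16.2 to 21.0 normalized FPKM in CD150hi HSC, from 12.0 through 14.8 to 19.3 in CD150lo HSC and from 8.78 through 15.5 to 17.4 in CD150neg MPP, with a log2 difference of 0.33 between the first and the last (adjusted p = 0.109). Slc2a3 (GLUT3), the more abundant carrier here, ran from 18.6 through 23.0 to 29.6, from 16.7 through 19.8 to 27.2 and from 16.3 through 21.0 to 29.6. Slc16a1, the lactate carrier MCT1, had means of 6.57 ± 2.89 (SD, n = 10), 6.29 ± 1.89 (n = 10) and 4.81 ± 0.996 (n = 9). The carriers' ranges overlapped between all 3 populations.

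The phosphofructokinases, which set the pace of glycolysis, differed in sign and none passed over both genotypes. Pfkl ran from 2.17 through 7.52 to 9.15 normalized FPKM in CD150hi HSC, from 6.31 through 8.90 to 11.1 in CD150lo HSC and from 6.53 through 9.74 to 10.2 in CD150neg MPP, a log2 difference of -0.41 between the first and the last (adjusted p = 0.0818). Pfkp ran from 3.55 through 4.59 to 7.21, from 2.65 through 3.34 to 4.68 and from 1.83 through 4.00 to 5.90, a difference of 0.32 (adjusted p = 0.112) and of 0.38 from CD150lo HSC (adjusted p = 0.0653). Within 5A3+/del alone Pfkp differed by 0.62 from CD150neg MPP (adjusted p = 0.0485), and within WT alone by 0.02 (adjusted p = 0.966). Pfkm, the muscle form, had a mean of 11.9 ± 6.50 in CD150hi HSC, where 1 library reached 27.6, and a log2 difference of 0.05 (adjusted p = 0.916).

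Apart from Gapdh, Pkm2 and Gpi1 above, the shared enzymes of the trunk of glycolysis did not pass. Between CD150hi HSC and CD150neg MPP the log2 differences were -0.06 for Aldoa and 0.06 for Aldoc, which split fructose bisphosphate, 0.20 for the triose isomerase Tpi1, -0.21 for the kinase Pgk1, -0.05 for the mutase Pgam1 and -0.13 for the main enolase Eno1, with adjusted p from 0.165 to 0.856. Pseudogene copies amounted to 128% of the FPKM of Pgk1, 31.7% of that of Eno1 and 28.5% of that of Pgam1, which leaves the levels of these 3 genes uncertain, and to 0.0173% of that of Aldoa.

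In the pentose phosphate pathway Taldo1 was the 1 of 7 members that passed between CD150hi HSC and CD150neg MPP. That share of 14.3% is near the 13.2% of all genes. Between CD150hi and CD150lo HSC it was again the 1 of 7, against 7.64% of all genes. G6pdx, which makes the first NADPH of the pathway, ran from 10.6 through 15.1 to 26.0 normalized FPKM in CD150hi HSC, from 11.5 through 16.1 to 20.4 in CD150lo HSC and from 12.7 through 16.2 to 21.6 in CD150neg MPP, with a log2 difference of -0.04 (95% interval -0.29 to 0.21) between the first and the last. Pgd, which makes the next NADPH, ran from 5.77 through 7.81 to 16.5, from 6.65 through 7.84 to 9.53 and from 6.40 through 9.01 to 11.3, a difference of -0.10 (-0.36 to 0.16). The transketolase Tkt ran from 13.9 through 16.6 to 21.5, from 12.9 through 19.0 to 21.9 and from 17.1 through 19.4 to 20.8, a difference of -0.16 (-0.35 to 0.03). The lactonase Pgls and the pentose phosphate isomerase and epimerase Rpia and Rpe had differences of 0.07, -0.13 and -0.12, of which Pgls shares 776 exon bases with Fam129c on the same strand and Rpe 563 with a gene on the opposite strand.

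Hif1a, a transcription factor that activates many of these genes in low oxygen and is controlled largely at the level of protein, ran from 4.34 through 9.31 to 12.9 normalized FPKM in CD150hi HSC, from 7.65 through 9.46 to 11.6 in CD150lo HSC and from 5.46 through 9.16 to 12.7 in CD150neg MPP. Its RNA did not order the populations, with a log2 difference of 0.02 (95% interval -0.24 to 0.29) between CD150hi HSC and CD150neg MPP.

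Some markers of megakaryocytes and of T and NK cells differed between the CD150 gates as well. The part of other lineages and of cell division in the differences of the members was not tested. The summed FPKM of 10 genes of dividing cells had medians of 59.7, 70.4 and 79.1 in CD150hi HSC, CD150lo HSC and CD150neg MPP, with ranges of 42.8 to 95.4, 50.7 to 94.3 and 56.7 to 104, and none of the 10 passed between CD150hi HSC and CD150neg MPP, where 3 had an unadjusted p under 0.05 against 24.9% of all genes. Of 6 tested megakaryocyte genes, 4 were higher and 2 lower in CD150hi HSC than in CD150neg MPP, the lowest at -0.68 on the log2 scale. Itgb3 and Treml1 passed, both higher. All 3 tested T and NK cell genes were lower, and Cd4 and Nkg7 passed. Of all genes, 13.2% passed in this comparison. The 8 T and NK genes summed to 6.56 to 18.8 FPKM in CD150hi HSC and 24.9 to 60.1 in CD150neg MPP, with Cd3g and Cd8a under 0.1 in every library of both. The 7 megakaryocyte genes summed to 32.6 to 59.3 and 25.5 to 59.6 FPKM, the 10 erythroid genes to 18.4 to 54.4 and 27.2 to 110, and the 8 B cell genes to 8.07 to 32.2 and 8.28 to 22.7. No erythroid or B cell gene passed between these populations (limma), with 3 of 6 and 0 of 3 tested at an unadjusted p under 0.05. Between CD150hi and CD150lo HSC, 0 of the 12 granulocyte and monocyte genes passed, 3 at an unadjusted p under 0.05 against 19.5% of all genes, and the erythroid gene Car1 was lower in CD150hi HSC.

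The question of the study design, whether the 5A3 deletion changes these genes, was asked in each population. No member passed in any of the 3 (limma, adjusted p under 0.05). In CD150hi HSC, 24 genes of all tested passed (0.156%), in CD150lo HSC 5 (0.0324%) and in CD150neg MPP 7 (0.0454%). At an unadjusted p under 0.05 there were 3 members of 34 in CD150hi HSC against 13.1% of all genes, 4 in CD150lo HSC against 6.87%, and 1 in CD150neg MPP against 4.27%. The median log2 difference of the members was 0.04, 0.07 and 0.03 in the 3 populations, beside 0.004, 0.01 and -0.001 for all genes. In CD150hi HSC the 24 genes were split as 5 higher and 19 lower, and under median scaling 21 genes passed, 7 higher and 14 lower. In CD150neg MPP 1 was higher and 6 lower, against 0 higher and 6 lower with no normalization beyond the FPKM.

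**Figure D4:**
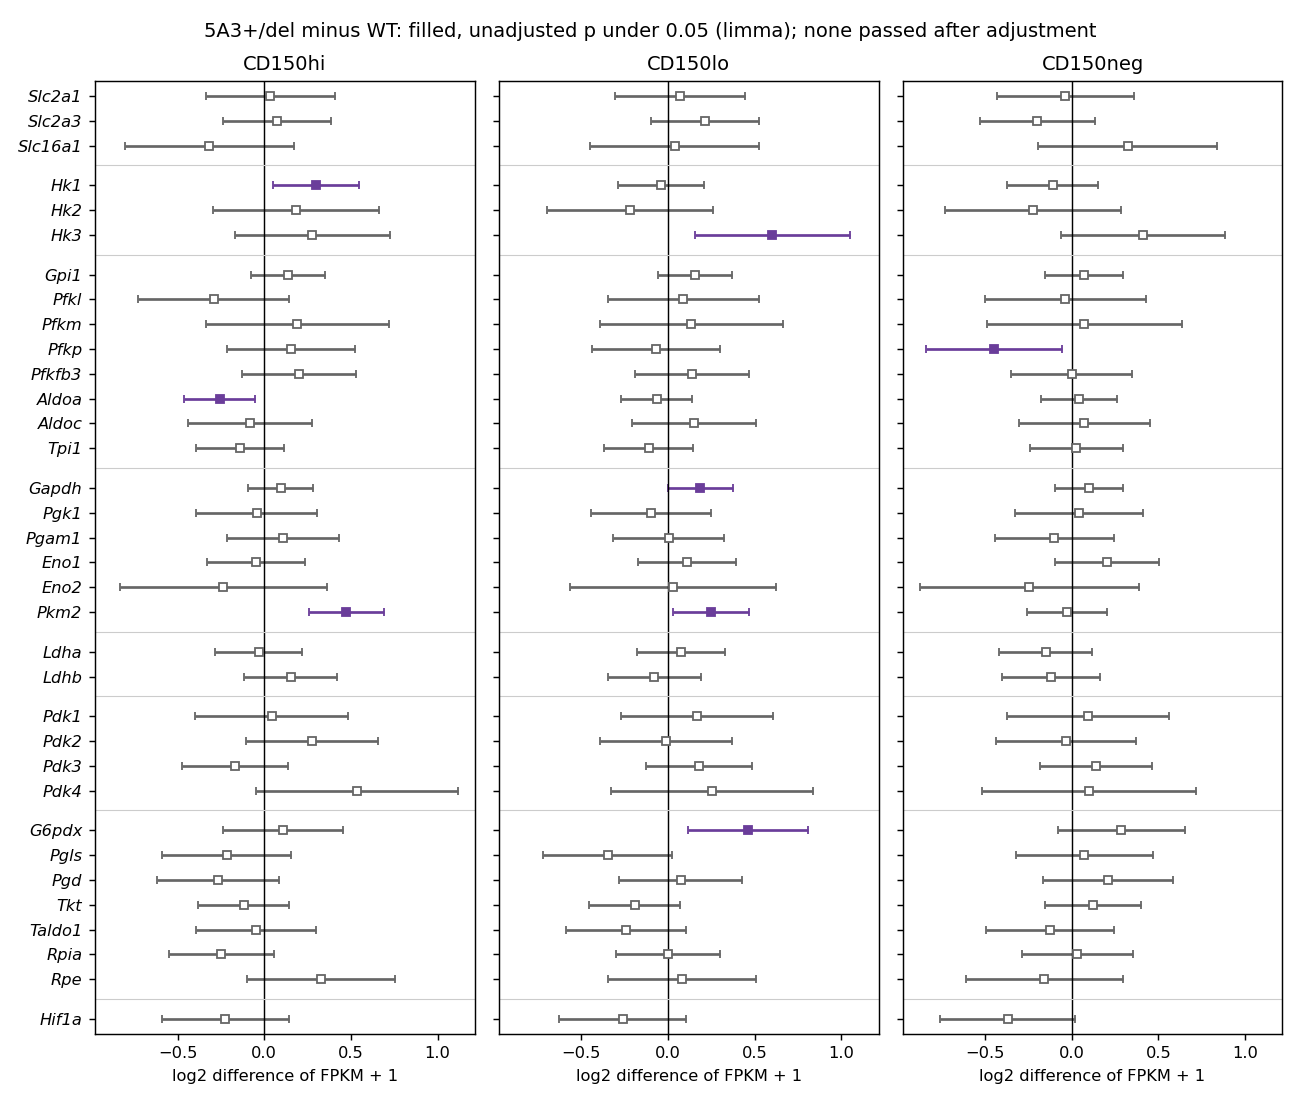
Log2 difference of normalized FPKM + 1 between 5A3+/del and WT with its 95% interval for each tested member, in CD150hi HSC, CD150lo HSC and CD150neg MPP. Filled points had an unadjusted p under 0.05 (3, 4 and 1 members), none passed after adjustment, and Pkm2 in CD150hi HSC, at 0.47, lies farthest from 0 relative to its interval.

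Pkm2 came nearest to the threshold. All 5 of the 5A3+/del CD150hi libraries listed above, at 91.2 to 103 normalized FPKM, lay above all 5 WT libraries, at 65.6 to 75.8. The log2 difference was 0.47 ± 0.11 (SE), or 1.39-fold, with an unadjusted p of 0.000136 and an adjusted p of 0.0519. With the mouse as a replicate block the adjusted p was 0.0498, and over the other alternatives it ran from 0.0161 to 0.390. In CD150lo HSC the difference was 0.25 (adjusted p = 0.626) and in CD150neg MPP -0.03 (adjusted p = 1.00). Without WT mouse 3 the 3 differences were 0.50, 0.18 and -0.03.

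Of the 12 granulocyte and monocyte markers, 9 were lower and 3 higher in 5A3+/del than in WT CD150hi HSC. They summed to 292 to 1139 FPKM in WT, the highest in mouse 1, and to 230 to 346 in 5A3+/del, so the ranges overlapped. None passed after adjustment (limma), and 5 had an unadjusted p under 0.05, against 13.1% of all genes. The median log2 difference over the list was -1.07. The 8 markers of HSC and MPP summed to 341 to 426 in WT CD150hi HSC and 424 to 549 in 5A3+/del CD150hi HSC. None of the 8 passed, and 3 had an unadjusted p under 0.05, against the same 13.1%. All 8 were higher in 5A3+/del, with a median log2 difference of 0.34 beside 0.004 for all genes. The part of either list in the Pkm2 difference was not tested. Of the 3 pseudogene copies of Pkm2 in the table, the summed FPKM was 0.0626% of that of the gene.

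Aldoa, the main aldolase, and Hk1 had the next smallest p in CD150hi HSC. Aldoa was at 81.4, 70.8, 74.0, 74.1 and 69.1 normalized FPKM in WT and at 56.9, 59.5, 67.5, 64.3 and 60.0 in 5A3+/del, so that all 5A3+/del libraries lay below all WT libraries. Its log2 difference was -0.26 ± 0.10 (SE, adjusted p = 0.260). Hk1 was at 5.76, 7.57, 9.20, 9.55 and 8.97 in WT and at 12.4, 11.5, 8.83, 8.60 and 10.2 in 5A3+/del, with overlapping groups and a log2 difference of 0.30 ± 0.12 (adjusted p = 0.277).

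In CD150lo HSC, Hk3 and G6pdx had the smallest p. The 5A3+/del values of Hk3, 10.7 to 16.6, lay above the WT values, 6.26 to 10.5, with a log2 difference of 0.60 ± 0.22 (SE, adjusted p = 0.480). G6pdx, which opens the pentose phosphate pathway and is X-linked, was at 11.5, 15.8, 12.7, 12.5 and 15.1 normalized FPKM in WT and at 16.4, 19.6, 18.8, 19.3 and 20.4 in 5A3+/del. Its groups did not overlap either, with a log2 difference of 0.46 ± 0.17 (adjusted p = 0.483), and 0.44 without WT mouse 3. G6pdx shares 418 exon bases with Ikbkg on the opposite strand. Its difference was 0.11 in CD150hi HSC and 0.29 in CD150neg MPP, and -0.02 and 0.31 without that mouse. The other X-linked members, Pgk1 and Pdk3, differed by -0.04 and -0.17 in CD150hi HSC, and by 0.08 and -0.16 without it. Pkm2 was the third member by p in CD150lo HSC, and Gapdh, at 0.19 (adjusted p = 0.724), the fourth.

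In CD150neg MPP the 3 members with the smallest p were Pfkp, Hif1a and Hk3. Pfkp, the platelet-type phosphofructokinase, was at 4.13, 5.90, 5.13, 3.33 and 3.81 normalized FPKM in WT and at 2.17, 1.83, 4.38 and 4.00 in 5A3+/del. Its log2 difference was -0.45 ± 0.19 (SE) with an adjusted p of 1.00. Hif1a was at 10.6, 9.46, 9.16, 8.28 and 12.7 in WT and at 7.17, 5.46, 7.66 and 10.2 in 5A3+/del, a log2 difference of -0.37 ± 0.19 (adjusted p = 1.00). Its difference had the same sign in CD150hi HSC, at -0.22 (adjusted p = 0.636), and in CD150lo HSC, at -0.26 (adjusted p = 0.889), and none passed the test. Hk3 differed by 0.41 ± 0.23 (adjusted p = 1.00), and by 0.12 without 5A3+/del mouse 2.

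The remaining members differed by genotype by between -0.32 (Slc16a1) and 0.53 (Pdk4) on the log2 scale in CD150hi HSC. Those not yet described ran from -0.35 (Pgls) to 0.25 (Pdk4) in CD150lo HSC, and from -0.25 (Eno2) to 0.32 (Slc16a1) in CD150neg MPP. Ldha, whose CD150hi libraries lay above all CD150neg libraries, differed by -0.03 in CD150hi HSC (95% interval -0.29 to 0.22), by 0.07 in CD150lo HSC (-0.18 to 0.33) and by -0.15 in CD150neg MPP (-0.42 to 0.12). Intervals of this width leave room for changes of about that size, and a p that misses the threshold does not show that the genotypes were alike.

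Whether the effect of the deletion differed between populations was tested as an interaction. No gene of the 15409 passed after adjustment in any of the 3 interactions (limma). At an unadjusted p under 0.05 there were 4 of 34 members between CD150hi HSC and CD150neg MPP against 7.96% of all genes, 0 between CD150hi and CD150lo HSC against 3.98%, and 0 between CD150lo HSC and CD150neg MPP against 5.00%. The 4 were Pkm2, Hk1, Pfkp and Aldoa. Pkm2 had the smallest p of these, with a difference of 0.50 ± 0.15 (SE) between the log2 effects, an unadjusted p of 0.00329 and an adjusted p of 0.378. That its genotype effect was particular to CD150hi HSC was thus not shown after adjustment.

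Further genes of the same pathways, 82 listed symbols of which 58 were tested, gave the surroundings of the members. Between CD150hi HSC and CD150neg MPP 10 of the 58 passed (17.2%, against 13.2% of all genes), 7 higher and 3 lower, with a median log2 difference of -0.05. Between CD150hi and CD150lo HSC 8 passed (13.8%, against 7.64%), 5 higher and 3 lower. None passed between CD150lo HSC and CD150neg MPP or between the genotypes in any population, where 8, 3 and 2 of the 58 had an unadjusted p under 0.05 in the order CD150hi, CD150lo, CD150neg, near the 13.1%, 6.87% and 4.27% of all genes.

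Emb, which encodes embigin, a partner protein of lactate carriers, had the largest difference of those that passed. Emb ran, in normalized FPKM, from 25.4 through 32.7 to 37.3 in CD150hi HSC, from 59.9 through 77.2 to 112 in CD150lo HSC and from 75.0 through 93.7 to 114 in CD150neg MPP. The CD150hi libraries lay below all others. Emb differed on the log2 scale by -1.52 ± 0.10 (SE) from CD150neg MPP (adjusted p = 4.76e-12) and -1.22 ± 0.09 from CD150lo HSC (adjusted p = 4.06e-10). Bsg, the other partner of these carriers, went the opposite way, at 63.2 ± 12.7 (SD, n = 10), 46.1 ± 4.82 (n = 10) and 49.2 ± 7.00 (n = 9), with log2 differences of 0.34 (adjusted p = 0.0278) and 0.43 (adjusted p = 0.00664).

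Pfkfb2, a relative of Pfkfb3, was higher in CD150hi HSC than in CD150neg MPP by 0.74 ± 0.10 (SE, adjusted p = 2.18e-06) and than in CD150lo HSC by 0.40 ± 0.09 (adjusted p = 0.00657). Minpp1, a phosphatase that can act on 2,3-bisphosphoglycerate, was higher than in CD150neg MPP by 0.55 (adjusted p = 0.000108). Fbp1, an enzyme of gluconeogenesis that reverses the phosphofructokinase step, was different by -1.03 on the log2 scale, with means of 2.31 and 4.86 normalized FPKM (adjusted p = 0.00347). Of 22 tested genes of this list of other glycolysis, gluconeogenesis and pentose phosphate enzymes, these were the 3 that passed against CD150neg MPP, a share of 13.6% that is near the 13.2% of all genes. Prps2, which uses ribose 5-phosphate, passed only against CD150lo HSC, at -0.53 (adjusted p = 0.0331).

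Among 20 tested genes of the hypoxia-inducible factor pathway, 5 passed between CD150hi HSC and CD150neg MPP, against 13.2% of all genes. Meis1, a transcription factor of HSC, was at 74.0 ± 7.15 (SD, n = 10) against 56.3 ± 4.40 (n = 9) normalized FPKM, a log2 difference of 0.39 (adjusted p = 0.000336). The alpha subunits Epas1 and Hif3a were higher by 1.14 (adjusted p = 0.00747) and 0.89 (adjusted p = 0.00729), and Epas1 ran from 0.818 to 15.0 in CD150hi HSC and from 0.023 to 1.67 in CD150neg MPP. Cited2, a regulator of the same factors, was higher by 0.75 (adjusted p = 0.0178), and Ndrg1, often used as a hypoxia-responsive gene, differed by -0.38 (adjusted p = 0.000593). The median of the 20 genes was -0.09. Against CD150lo HSC 4 of the 20 passed, against 7.64% of all genes. Epas1 was higher by 1.18 (adjusted p = 0.00695), Hif3a by 0.82 (adjusted p = 0.0169) and Meis1 by 0.26 (adjusted p = 0.0188), and Ndrg1 differed by -0.45 (adjusted p = 0.000102). None of the 10 tested genes of pyruvate entry into mitochondria passed between CD150hi HSC and CD150neg MPP (1 at an unadjusted p under 0.05), and 2 of 6 tested genes among other hexose and monocarboxylate carriers did, Emb and Bsg.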

How the data were processed

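The deposited table held FPKM values per gene, which the authors made from paired reads of amplified RNA on build mm9; the submitters' processing notes name Bowtie 0.12.2 and HTSeq. Values below 50 fragments were whole multiples of 1 fragment in 98.3 to 98.8% of cases (tolerance 0.05), from which depth was read, and precision follows the fragments behind a gene. The study tested exon coverage with limma, whereas FPKM were tested here. From the deposited FPKM, genes at 1 or more in at least 4 libraries were kept, a pseudocount of 1 was added, log2 values were quantile-normalized, and limma 3.58.1 (R 4.3.3) was fitted to 6 group means over 29 libraries with Benjamini-Hochberg adjustment over 15409 genes at 0.05. Folds are on the log2(FPKM + 1) scale. The fit was tested on simulated data for the genotype comparison in CD150hi HSC only. The noise there was independent between libraries, so the population comparisons within a mouse were not checked.

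Groups, populations and mice came from the labels. Libraries of 1 mouse share its code. Their residuals correlated by -0.04 to 0.23 (28 pairs, median 0.079), so the mouse entered as a replicate block in an alternative. Alternatives covered the pseudocount, filter, normalization, variance trend, age, genotype and each mouse. Pseudogene copies were found with blastn 2.17.0. The members and gene lists were chosen with earlier results of these data known. Named in full were 18 fixed members, others that passed, and the 3 with the smallest p per genotype comparison. Replicates are separate mice.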

Additional observations from a re-analysis of the deposited data

Results flagged for a closer look

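Single libraries stood apart from their group in 11 of 144 tests over 24 members and 6 groups (Dixon's gap test at 95%, which flags about 1 group in 20 by chance). All values are normalized FPKM. Hk3 was flagged in both CD150hi HSC and CD150neg MPP of 5A3+/del mouse 2, at 11.5 (others 4.84 to 5.72) and 27.4 (others 10.9 to 13.2). In CD150hi HSC of WT mouse 2, Hk2 was at 11.2 (others 3.50 to 5.69) and Eno2 at 8.48 (others 1.58 to 3.12). WT mouse 3, which also stood apart by Xist, had Slc2a1 at 18.1 in CD150hi HSC (others 15.5 to 16.2) and Hk1 at 9.89 in CD150neg MPP (others 7.96 to 8.35). Slc2a1 was at 18.3 in CD150lo HSC of WT mouse 1 (others 13.4 to 14.7). Gpi1 was at 28.9 in CD150hi HSC of WT mouse 5 (others 24.4 to 25.4) and at 34.0 in CD150lo HSC of 5A3+/del mouse 4 (others 27.6 to 28.1). Low values were Pfkl at 6.91 in CD150lo HSC of 5A3+/del mouse 1 (others 8.97 to 9.63) and Pdk4 at 0.217 in CD150neg MPP of 5A3+/del mouse 4 (others 0.661 to 0.741).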

How the results depend on the processing

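Some of the 24 named results were genotype differences that had not passed and so had no call to lose. Of 467 alternative values for the 24 results, 416 kept their direction and their side of the threshold, 46 lost the call, 5 gained it and 0 reversed. The 5 were Pkm2 between genotypes in CD150hi HSC, so that the count of members passing there rose from 0 to 1 with no filter (adjusted p = 0.0240), a filter of FPKM 5 (0.0268), median scaling (0.0496), a variance trend (0.0161) and the mouse as a replicate block (0.0498). It stayed at 0 without each mouse in turn. With the block 9 and 7 members passed for CD150hi HSC against CD150neg MPP and against CD150lo HSC, and the other counts were the same. Within WT alone the members passing fell from 9 to 4 for CD150hi HSC against CD150neg MPP, where 6 passed within 5A3+/del alone. For CD150hi against CD150lo HSC the number fell from 6 to 3 within WT, and 1 passed within 5A3+/del alone. These comparisons came from the same fit over all 29 libraries and used the group means of 1 genotype only. The shares of all genes passing within 1 genotype are not given here. The counts can therefore not be read as particular to the members or to a genotype. Without each mouse in turn the counts over both genotypes were 7 to 9 and 4 to 6. The call of Pdk4 against CD150lo HSC was lost in 10 of 19 alternatives. Against CD150neg MPP those of Gpi1 and Taldo1 were lost in 10 and 9 of 20. The cause of the other changes was not tested. Amplified RNA and low FPKM limit Eno2, Pdk4 and Slc16a3 most.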
